A study of Sus scrofa with 32 samples.

Results

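Tyrosine aminotransferase (TAT) and 4-hydroxyphenylpyruvate dioxygenase (HPD) catalyse the first and second steps of tyrosine breakdown. Both genes were described in fetal pig liver across gestation and maternal diet. They were taken by the gene symbol in the array annotation. Probe sets that carried exactly 1 symbol, TAT or HPD, were used, which gave 3 of the 24123 probe sets on the array. TAT had 2 probe sets, Ssc.14066.1.A1_at (called the brighter) and Ssc.14066.2.S1_at (the dimmer), under NCBI gene 100511756. HPD had 1, Ssc.16162.1.S1_at, under NCBI gene 397443. All 3 passed the filter on low signal.

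Liver RNA of Pietrain pig fetuses was hybridised to 32 Affymetrix porcine arrays, 1 per sample. The mothers were gilts given a methyl-enriched or a control diet in gestation, and livers were collected at 35, 63 and 91 days post coitum (dpc). Each diet was represented by 5 arrays at 35 dpc, by 6 at 63 dpc and by 5 at 91 dpc. The fetuses of a stage came from 5 to 6 gilts per the series record, but which array belongs to which gilt is not labelled, nor is fetal sex. The stages had 10 or 12 arrays, so unless that count of gilts is per diet some fetuses of a group shared a dam. Where fetuses of a group shared a dam, the p-values below for stage and diet are too small.

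Tyrosine is degraded in the cytosol of hepatocytes in a chain of steps that ends in fumarate and acetoacetate. TAT moves the amino group of tyrosine to 2-oxoglutarate and leaves 4-hydroxyphenylpyruvate, which HPD oxidises to homogentisate. Homogentisate 1,2-dioxygenase (HGD), maleylacetoacetate isomerase (GSTZ1) and fumarylacetoacetase (FAH) complete the chain. In rat liver TAT is a classic target of glucocorticoids and cyclic AMP and becomes abundant around birth. Loss of TAT or HPD in humans raises blood tyrosine.

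The deposited values are log2 signals, 1 per probe set and array, and their number of arrays limits the precision. They ran from 2.20 to 16.6 over the arrays. The 40th percentile of an array, used here as a mark of low signal, lay between 2.74 and 2.93. The signal of the spike-in control bioC exceeded that of bioB by 1.48 to 1.96 on 18 arrays (large-gap arrays) and by 0.24 to 0.41 on the other 14 (small-gap arrays). Of the arrays of a diet, 3 were large-gap at every stage and the remaining 2 or 3 small-gap. The mean level of 18 hepatocyte markers was 14.00 to 14.49 at 35 dpc, 14.68 to 15.00 at 63 dpc and 15.02 to 15.20 at 91 dpc. The mean of 8 erythroid markers was 10.94, 10.41 and 8.64 at 35, 63 and 91 dpc. In bulk tissue fewer cells of a type and less RNA per cell cannot be told apart.

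TAT and HPD changed in opposite directions during gestation. The HPD probe set averaged 11.25 ± 0.60 at 35 dpc (SD, n = 10), 4.83 ± 2.13 at 63 dpc (n = 12) and 3.35 ± 0.43 at 91 dpc (n = 10). The brighter TAT probe set averaged 10.62 ± 0.32, 11.68 ± 0.47 and 12.36 ± 0.57 at 35, 63 and 91 dpc. The dimmer TAT probe set averaged 8.86 ± 0.47, 9.65 ± 0.70 and 10.16 ± 0.84 at the same stages.

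**Figure D1:**
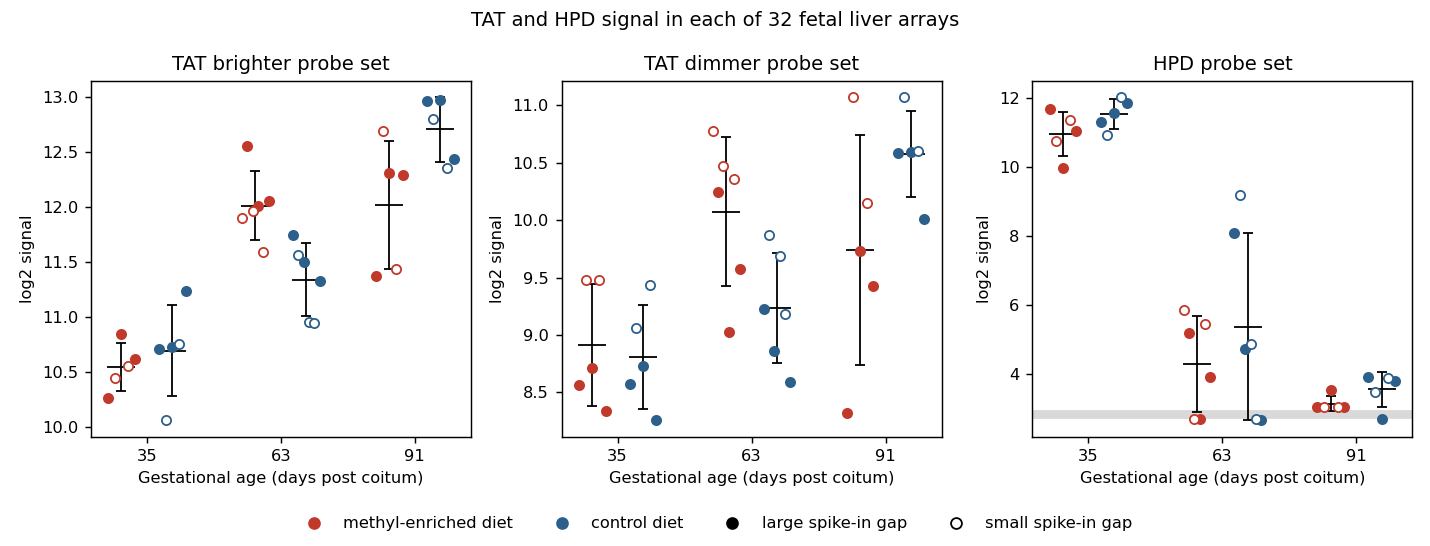
Log2 signal (vertical axes, a separate scale for each probe set) of the 3 probe sets against gestational age, with methyl-diet arrays in red and control-diet arrays in blue; filled points are large-gap and open points small-gap arrays, bars give the group mean ± SD, and the grey band marks the range of the arrays' 40th percentiles. All 10 HPD values of 35 dpc lie above all later ones, and the 12 values of 63 dpc spread from 2.67 to 9.18.

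At 35 dpc HPD signal was high on every array. It was 11.66, 10.75, 9.98, 11.36 and 11.03 in methyl fetuses, against 11.30, 10.93, 11.58, 12.02 and 11.85 in control fetuses. At 63 dpc the lowest, median and highest values were 2.70, 4.54 and 5.85 in methyl fetuses, against 2.67, 4.80 and 9.18 in control fetuses. At 91 dpc the values were 3.05, 3.04, 3.53, 3.05 and 3.05 in methyl fetuses, against 3.92, 3.49, 2.70, 3.89 and 3.80 in control fetuses. The 12 arrays of 63 dpc and the 10 of 91 dpc lay below all 10 arrays of 35 dpc, whereas 63 and 91 dpc overlapped.

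HPD fell by 6.41 ± 0.56 on the log2 scale between 63 and 35 dpc (SE, limma adjusted p = 1.73e-10, 95% interval -7.55 to -5.28). At a limma adjusted p under 0.05, 60.5% of the 15327 probe sets tested changed between these stages, 32.5% higher and 28.0% lower at 63 dpc. No tested probe set fell by more, among the 7119 that were lower at 63 dpc. The log2 difference is an 85.1-fold drop. It was 83.8-fold with values under the 40th percentile of an array raised to it, since 4 of the 12 arrays of 63 dpc, 2 of each diet, were at or below that mark. The log2 difference was -6.66 ± 0.79 in methyl fetuses and -6.16 ± 0.79 in control fetuses (limma adjusted p = 2.08e-07 and 1.02e-06), where 50.0% and 39.5% of the probe sets changed.

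Between 91 and 63 dpc HPD fell by a further 1.48 ± 0.56 (limma adjusted p = 0.0229, 95% interval -2.62 to -0.35), a contrast in which 58.5% of the probe sets changed, 29.5% higher and 29.0% lower. This call was not kept in every fit. The adjusted p by limma was 0.0533 with the arrays of these stages alone, 0.245 in methyl fetuses alone (-1.15) and 0.0607 in control fetuses alone (-1.81). The signal at 91 dpc was close to the mark of low signal, with 1 of 10 arrays, a control one, at or below it. The value 2.70 was deposited as exactly the same number on 4 arrays, 3 of 63 dpc and 1 of 91 dpc, and a value of 3.05 on 2 arrays of 91 dpc. Such repeats were common in the deposited table, in 17644 of the 24123 probe sets, but neither TAT probe set had one. Between 91 and 35 dpc HPD fell by 7.89 ± 0.58 (limma adjusted p = 2.65e-13), where 79.9% of the probe sets changed, 40.8% higher and 39.1% lower. No tested probe set fell by more, among the 7635 that were lower at 91 dpc.

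The spread of HPD among fetuses was widest at 63 dpc. The SD within groups was 0.55 at 35 dpc, 2.16 at 63 dpc and 0.39 at 91 dpc. At 63 dpc 3 of the 15327 probe sets had a larger within-group SD, and the median over all probe sets was 0.30. The 2 highest values belonged to control replicates 2 (9.18) and 1 (8.08), a small-gap and a large-gap array. The next was 5.85 in methyl replicate 1. These 2 control arrays also had the lowest mean of the 18 hepatocyte markers at 63 dpc, 14.68 and 14.81, against 14.86 to 15.00 on the other arrays of that stage. The part of this in the HPD spread was not tested. Leaving out control replicate 2 moved the fall between 63 and 35 dpc to -6.79, the lowest value over the arrays left out in turn, and the highest was -6.14.

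Both TAT probe sets rose. On the brighter one the values at 35 dpc were 10.26, 10.44, 10.84, 10.55 and 10.62 in methyl fetuses, against 10.71, 10.06, 10.73, 10.75 and 11.23 in control fetuses. At 63 dpc the lowest, median and highest were 11.59, 11.99 and 12.56 in methyl fetuses, against 10.95, 11.42 and 11.75 in control fetuses. At 91 dpc the values were 11.37, 12.69, 12.31, 11.44 and 12.29 in methyl fetuses, against 12.96, 12.80, 12.98, 12.36 and 12.44 in control fetuses. All 10 arrays of 91 dpc and 10 of the 12 of 63 dpc lay above every array of 35 dpc, and 4 of the 10 arrays of 91 dpc lay above every array of 63 dpc.

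The brighter TAT probe set rose by 1.06 ± 0.15 between 63 and 35 dpc (limma adjusted p = 9.08e-07, 2.08-fold) and by 0.69 ± 0.15 between 91 and 63 dpc (limma adjusted p = 0.000301, 1.61-fold). The rise between 91 and 35 dpc was 1.74 ± 0.16 (limma adjusted p = 2.79e-11, 3.35-fold). Larger rises were frequent: 1732 of the 8208 probe sets that were higher at 63 than at 35 dpc rose by more. The within-group SD at 91 dpc was 0.46, above the median of 0.31, and the methyl arrays of that stage lay in a lower pair (11.37 and 11.44) and an upper trio (12.29 to 12.69). The lower pair, methyl replicates 1 and 4, had the highest erythroid marker means of its group, 8.96 and 8.99, against 8.18, 8.04 and 8.71 in replicates 2, 3 and 5. In the control group of 91 dpc replicate 4, the lowest for TAT at 12.36, had the highest erythroid mean, 9.38, against 8.43 to 8.72 in the others.

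On the dimmer TAT probe set the values at 35 dpc were 8.57, 9.48, 8.71, 9.48 and 8.34 in methyl fetuses, against 8.57, 9.06, 8.73, 9.44 and 8.26 in control fetuses. At 63 dpc the lowest, median and highest were 9.02, 10.30 and 10.78 in methyl fetuses, against 8.59, 9.20 and 9.87 in control fetuses. At 91 dpc the values were 8.32, 11.07, 9.73, 10.15 and 9.43 in methyl fetuses, against 10.58, 11.07, 10.60, 10.60 and 10.01 in control fetuses. The stages overlapped more than on the brighter probe set, with 8 of the 10 arrays of 91 dpc above every array of 35 dpc.

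The dimmer probe set rose by 0.79 ± 0.25 between 63 and 35 dpc (limma adjusted p = 0.00697, 1.73-fold) and by 1.29 ± 0.26 between 91 and 35 dpc (limma adjusted p = 4.40e-05, 2.45-fold). The difference between 91 and 63 dpc was 0.50 ± 0.25 and did not pass (limma adjusted p = 0.0831, 95% interval -0.0049 to 1.01). It passed with the spike-in gap group as a block, at 0.59 ± 0.17 (limma adjusted p = 0.0030), and without methyl 91 dpc replicate 1, the array at 8.32, where it was 0.68 (limma adjusted p = 0.0117).

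The 2 TAT probe sets responded differently to the spike-in gap. The dimmer one was higher by 0.86 ± 0.14 in small-gap than in large-gap arrays (limma adjusted p = 2.99e-05), whereas the brighter one differed by -0.25 ± 0.12 (limma adjusted p = 0.122) and HPD by 0.24 ± 0.47 (limma adjusted p = 0.748). In all 24.1% of the probe sets differed between the gap groups. The rises were present within each gap group. In small-gap and large-gap arrays the 63 minus 35 dpc difference was 1.04 and 1.14 on the brighter probe set and 0.69 and 0.72 on the dimmer, and the HPD difference was -6.14 and -6.69. The 91 minus 63 dpc difference was 0.83 and 0.52 on the brighter probe set, 0.66 and 0.53 on the dimmer, and -1.76 and -1.20 for HPD.

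The diet question was asked at each stage. No difference of TAT or HPD between methyl and control fetuses passed the limma test adjusted over all probe sets. Few probe sets did: 0.0391% at 35 dpc, 0 at 63 dpc and 0.0718% at 91 dpc, against 6.09%, 1.43% and 6.52% at an unadjusted limma p under 0.05. With 0 probe sets called, the F test of diet by stage had 4.31% at an unadjusted p under 0.05.

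The largest diet differences of TAT had opposite signs at 63 and 91 dpc. At 63 dpc the brighter probe set averaged 12.01 ± 0.31 in methyl fetuses and 11.34 ± 0.33 in control fetuses (SD, n = 6 each). The difference was 0.67 ± 0.21 (SE, limma adjusted p = 1). All but 1 of the 6 methyl arrays lay above every control array. At 91 dpc it averaged 12.02 ± 0.58 in methyl fetuses and 12.71 ± 0.29 in control fetuses (n = 5 each). The difference was -0.69 ± 0.22 (limma adjusted p = 0.451), with 4 of the 5 methyl arrays below every control array. An exact two-sided permutation test of the arrays of a stage gave unadjusted p-values of 0.00433 at 63 dpc and 0.0397 at 91 dpc, where the limma test before adjustment gave 0.00262 and 0.00460. At 91 dpc the erythroid marker means ran from 8.04 to 8.99 in methyl fetuses and from 8.43 to 9.38 in control fetuses, and their part in the TAT difference was not tested. At 35 dpc the averages were 10.54 ± 0.22 in methyl fetuses and 10.70 ± 0.42 in control fetuses, a difference of -0.15 ± 0.22 (limma adjusted p = 0.991).

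The dimmer TAT probe set gave the same signs at 63 and 91 dpc. It averaged 10.07 ± 0.65 in methyl and 9.23 ± 0.48 in control fetuses at 63 dpc, a difference of 0.84 ± 0.33 (limma p = 0.0176, adjusted p = 1, exact permutation p = 0.0346). At 91 dpc it averaged 9.74 ± 1.01 in methyl and 10.57 ± 0.37 in control fetuses, a difference of -0.83 ± 0.37 (limma p = 0.0302, adjusted p = 0.678, exact permutation p = 0.135). At 35 dpc it differed by 0.10 ± 0.37 (limma adjusted p = 1). Both probe sets measure the same fetuses and are no independent evidence of each other.

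The F test of whether the diet difference varied with stage gave 10.3 for the brighter probe set (limma adjusted p = 0.410), 5.69 for the dimmer (limma adjusted p = 1) and 0.19 for HPD (limma adjusted p = 1). None passed after adjustment, so a diet-dependent time course was not established by this test. The values within each diet, computed after the diet differences were seen, were as follows. The 63 minus 35 dpc rise of the brighter probe set was 1.47 ± 0.22 in methyl fetuses (limma adjusted p = 3.95e-06) and 0.65 ± 0.22 in control fetuses (limma adjusted p = 0.0177). The 91 minus 63 dpc difference was 0.0051 ± 0.22 in methyl fetuses (limma adjusted p = 0.990) and 1.37 ± 0.22 in control fetuses (limma adjusted p = 8.54e-06), with 43.7% and 45.0% of the probe sets called. In order of level the 6 group means of this probe set were methyl and control at 35 dpc, control at 63 dpc, methyl at 63 and 91 dpc, and control at 91 dpc, and the methyl groups of 63 and 91 dpc did not differ beyond their spread, nor did the pair of 35 dpc.

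HPD averaged lower in methyl than in control fetuses at every stage, but none of these differences passed the test. It averaged 10.96 ± 0.64 in methyl and 11.54 ± 0.44 in control fetuses at 35 dpc, a difference of -0.58 ± 0.82 (limma adjusted p = 0.990). At 63 dpc it averaged 4.30 ± 1.40 in methyl and 5.37 ± 2.72 in control fetuses, a difference of -1.07 ± 0.75 (limma adjusted p = 1, 95% interval -2.61 to 0.46). That difference was -0.31 without control 63 dpc replicate 2. At 91 dpc it averaged 3.14 ± 0.21 in methyl and 3.56 ± 0.51 in control fetuses, a difference of -0.42 ± 0.82 (limma adjusted p = 1). The exact permutation p-values were 0.135, 0.413 and 0.119 at 35, 63 and 91 dpc. Over the stages together the difference was -0.69 ± 0.46 for HPD (limma adjusted p = 0.999, with 0 probe sets called and 4.47% at an unadjusted p under 0.05), -0.06 ± 0.13 for the brighter and 0.04 ± 0.21 for the dimmer TAT probe set.

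**Figure D2:**
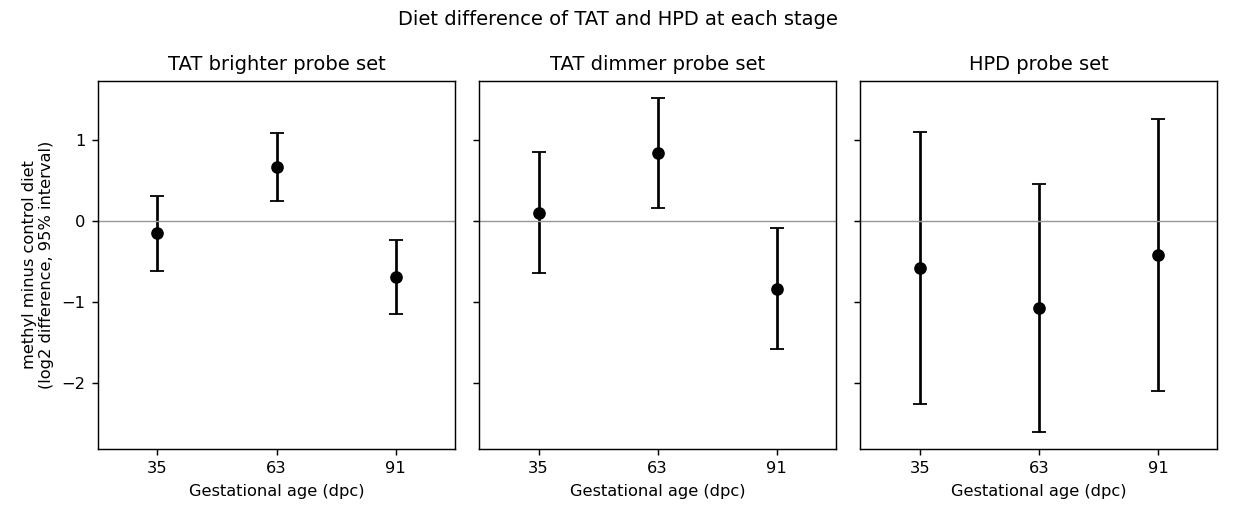
Methyl minus control log2 difference (vertical axis, shared by the panels) of each probe set at 35, 63 and 91 dpc, with the 95% interval of the limma fit before any adjustment for multiple testing. For each probe set the fit shares 1 spread over the 6 groups, so an interval does not show the spread of its own stage. The brighter TAT probe set stands at 0.67 at 63 dpc and -0.69 at 91 dpc, and the HPD intervals include 0 at every stage.

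The neighbours of TAT and HPD in the pathway were read beside them. No tested probe set fell by more than HPD between 63 and 35 dpc or between 91 and 35 dpc. A smaller fall of the neighbours in these contrasts was thus given in advance. Lists of tyrosine breakdown (5 genes) and of tetrahydrobiopterin synthesis, recycling and use (8 genes) had 8 of 13 genes measured by a probe set of 1 symbol. HGD, PCBD1, GCH1 and DNAJC12 were among those not analysed here. Between 63 and 35 dpc 1 of the 8 genes rose, TAT, and 3 fell, HPD, FAH and GCHFR. Between 91 and 63 dpc TAT rose and 5 fell, HPD, FAH, GSTZ1, PTS and GCHFR. Between 91 and 35 dpc TAT rose and the other 7 fell, each by its brightest probe set. Over all 5594 genes, each by its brightest probe set, 30.4% rose and 38.5% fell between 63 and 35 dpc, 22.6% and 39.8% between 91 and 63 dpc, and 33.6% and 50.1% between 91 and 35 dpc. The median log2 difference of the 8 genes was -0.16, -0.34 and -0.51 in these contrasts, against -0.09, -0.14 and -0.25 over all genes.

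FAH, which splits fumarylacetoacetate in the last step, averaged 10.97, 10.74 and 10.35 at 35, 63 and 91 dpc. It differed by -0.23 ± 0.09 between 63 and 35 dpc (limma adjusted p = 0.0263) and by -0.39 ± 0.09 between 91 and 63 dpc (limma adjusted p = 0.000345). GSTZ1, the isomerase before it, averaged 10.29, 10.26 and 9.59, with its fall of 0.68 ± 0.11 between 91 and 63 dpc (limma adjusted p = 2.94e-06). A second, dimmer GSTZ1 probe set did not follow it: its 63 minus 35 dpc difference was 0.41 ± 0.16 (limma adjusted p = 0.0281) and its 91 minus 63 dpc difference -0.10 ± 0.16 (limma adjusted p = 0.613). The 91 minus 35 dpc differences were -0.62 for FAH and -0.70 for GSTZ1 on its brightest probe set. The second GSTZ1 probe set differed by 0.31 ± 0.17 and did not pass (limma adjusted p = 0.0882).

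Tetrahydrobiopterin is a cofactor of enzymes that hydroxylate aromatic amino acids. GCHFR, the feedback regulator of tetrahydrobiopterin synthesis, differed by -0.44 ± 0.11 between 63 and 35 dpc (limma adjusted p = 0.00149) and by -0.41 ± 0.11 between 91 and 63 dpc (limma adjusted p = 0.00284). PTS, which makes a precursor of the cofactor, differed by -0.29 ± 0.07 between 91 and 63 dpc (limma adjusted p = 0.00136). QDPR, which regenerates the cofactor, and SPR, which finishes its synthesis, passed in neither step on their brightest probe sets, with differences of -0.16 and -0.17 between 63 and 35 dpc and of -0.14 and -0.23 between 91 and 63 dpc. A second QDPR probe set passed in both steps. Its differences were -0.21 ± 0.09 between 63 and 35 dpc and -0.54 ± 0.09 between 91 and 63 dpc (limma adjusted p = 0.0414 and 6.38e-06).

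Of the other enzymes that act on tyrosine or its products, 4 of 8 listed genes were tested. Between 63 and 35 dpc 3 fell and between 91 and 63 dpc all 4 did, with medians of -0.51 and -0.55, steps in which 38.5% and 39.8% of all genes fell. DDC, the decarboxylase of aromatic L-amino acids, fell by 0.67 ± 0.09 and by 0.96 ± 0.09 in these steps (limma adjusted p = 1.52e-07 and 1.57e-10). MIF, a cytokine with tautomerase activity on phenylpyruvate, fell by 0.91 ± 0.11 and by 0.36 ± 0.11 (limma adjusted p = 8.14e-08 and 0.00711). The aspartate aminotransferases GOT1 and GOT2 differed by -0.34 and -0.07 in the first step, of which the GOT2 value did not pass, and fell by 0.62 and by 0.48 in the second. The tyrosinase gene TYR was at 2.39, 2.20 and 2.20 at 35, 63 and 91 dpc and failed the filter on low signal.

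**Figure D3:**
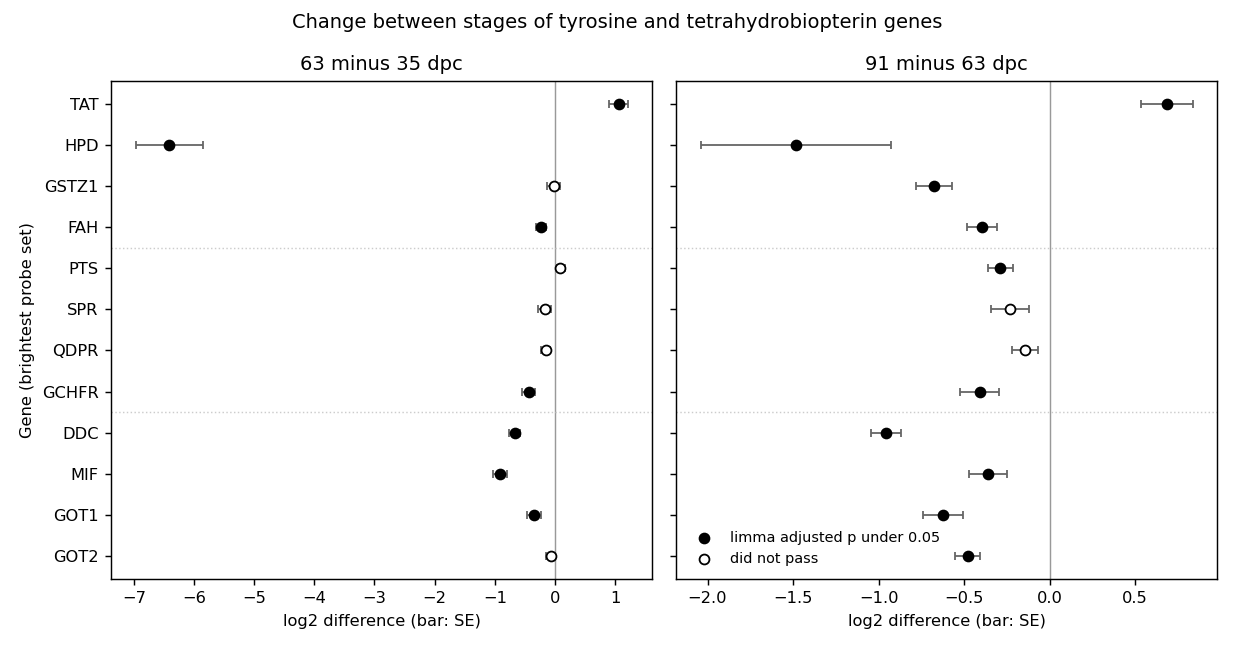
Log2 difference ± SE (horizontal axes, which differ in scale between the panels) of the tyrosine breakdown, tetrahydrobiopterin and other tyrosine genes, each by its brightest probe set, for 63 minus 35 dpc and 91 minus 63 dpc; filled points passed limma at an adjusted p under 0.05. TAT is the one gene to the right of 0 that passed in either panel, and HPD lies at -6.41 and -1.48.

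Genes that degrade other amino acids moved in both directions. Of 25 tested from a list of 47, 12 rose and 9 fell between 63 and 35 dpc, and 7 rose and 9 fell between 91 and 63 dpc. Over all genes 30.4% rose and 38.5% fell in the first step, and 22.6% rose and 39.8% fell in the second, so the counts of the second step lay near the background. The list medians were 0.24 and 0.05. AMT of the glycine cleavage system fell by 1.25 ± 0.11 and by 1.32 ± 0.11 in these steps (limma adjusted p = 1.10e-10 and 1.37e-11). GCDH, which acts on glutaryl-CoA from lysine and tryptophan, fell by 1.07 ± 0.10 and by 0.71 ± 0.10 (limma adjusted p = 4.15e-10 and 3.33e-07). OAT, which acts on ornithine, fell by 1.62 ± 0.17 between 63 and 35 dpc and ALDH4A1, of proline breakdown, by 0.90 ± 0.10. KYNU of tryptophan breakdown rose by 1.59 ± 0.18 between 91 and 63 dpc (limma adjusted p = 1.28e-08), and ARG1 of the urea cycle fell by 0.55 ± 0.08. ARG1 had risen by 0.43 ± 0.08 between 63 and 35 dpc (limma adjusted p = 2.28e-05). Its 91 minus 35 dpc difference of -0.12 did not pass (limma adjusted p = 0.169).

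Hormone response genes and liver transcription factors, had 14 of 23 listed genes tested. Between 63 and 35 dpc 7 rose, PPARGC1A among them, and 4 fell, against 30.4% and 38.5% of all genes. Between 91 and 63 dpc 8 rose, KLF9 among them, and 1 fell, against 22.6% and 39.8%. The rise of KLF9 was fixed by the filter, and the list was chosen with earlier results of these data known. The counts of this list are therefore a description and no test against all genes. The list medians were 0.32 and 0.44. KLF9, a glucocorticoid and thyroid hormone target, was at 2.37 and 2.45 at 35 and 63 dpc, below the mark of low signal, and at 7.13 at 91 dpc. It passed the filter only through the 91 dpc arrays, so this difference is a description. PPARGC1A, a coactivator of fasting metabolism, averaged 2.69, 4.12 and 6.50 at 35, 63 and 91 dpc. Its first mean lay below the mark of low signal, so the difference of 1.43 ± 0.17 in the first step is a description. In the second step it rose by 2.37 ± 0.17 (limma adjusted p = 2.41e-12). SGK1, a kinase induced by glucocorticoids, rose by 0.77 ± 0.11 and by 0.83 ± 0.11 in the 2 steps (limma adjusted p = 4.82e-07 and 1.15e-07). The glucocorticoid receptor NR3C1, on its brightest probe set, averaged 3.24, 3.81 and 4.63 at 35, 63 and 91 dpc and passed in both steps (limma adjusted p = 0.000742 and 7.60e-06). A second kept probe set averaged 2.53, 2.87 and 3.68 and passed in the second step alone (limma adjusted p = 0.140 and 0.000780). Its mean at 35 dpc lay below the mark of low signal and that at 63 dpc within the range of the mark. The differences of this probe set are therefore a description. The other NR3C1 probe sets failed the filter on low signal.

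Among the other members, FOXA2, a pioneer factor of liver genes, rose by 1.10 ± 0.13 between 63 and 35 dpc (limma adjusted p = 2.68e-08). HSD11B1, which regenerates active glucocorticoid, fell by 0.45 ± 0.11 between 63 and 35 dpc (limma adjusted p = 0.000574). It then rose by 0.75 ± 0.11 between 91 and 63 dpc (limma adjusted p = 7.57e-07), and its 91 minus 35 dpc difference was 0.29. CEBPA, a hepatocyte factor, averaged 6.20, 5.41 and 4.53 and fell in both steps (limma adjusted p = 0.00586 and 0.00244), and the clock gene PER1 fell by 0.81 ± 0.12 in the first. HNF4A rose by 0.30 ± 0.09 in the first step (limma adjusted p = 0.00380) and differed by -0.12 in the second (limma adjusted p = 0.237). No gene of these lists or of the marker lists passed for diet at any stage.

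HPD is also made in kidney, and markers of neighbouring organs were therefore read beside its fall. Of 9 kidney and mesonephros markers measured, 4 were at or below the mark of low signal on all arrays of 35 dpc, LRP2, a proximal tubule receptor (mean 2.22), SLC22A8, an organic anion carrier (2.22), SLC22A2, an organic cation carrier (2.20), and WT1, a nephron transcription factor (2.30). The mean of the log2 signals over the list ran from 4.35 to 4.84 at 35 dpc, 3.87 to 4.34 at 63 dpc and 3.73 to 3.93 at 91 dpc. Of the 5 kidney markers tested, 3 fell between 63 and 35 dpc: GPX3, the plasma glutathione peroxidase (9.72, 6.37 and 4.18 over the stages), MIOX, the inositol oxygenase (8.99, 7.02 and 6.22), and the amino acid carrier SLC7A9. SLC3A1, its partner, rose. Of 18 hepatocyte markers 11 rose and 1 fell between 63 and 35 dpc, and 7 rose and 4 fell between 91 and 63 dpc, while of 8 erythroid markers 1 rose and 6 fell in each step. The shares of all genes that rose and fell were 30.4% and 38.5% in the first step and 22.6% and 39.8% in the second, the background for the counts of each marker list. The means over 8 adrenal and gonad markers were 3.43, 3.25 and 3.21, and those over 12 pancreas and gut markers 3.77, 3.82 and 3.79. Of these, 4 and 3 were tested. In the adrenal and gonad list 2 genes fell in the first step and 0 in the second, and in the pancreas and gut list 2 rose and 1 fell in each. AMY2, on its brightest probe set (12.41, 13.70 and 14.60 over the stages), and VIL1 rose, and CELA1 (5.70, 4.91 and 3.14) fell. At or below the mark of low signal on all arrays of a stage were 6, 9 and 8 of the 12 pancreas and gut markers at 35, 63 and 91 dpc. The part of GPX3- or MIOX-expressing cells in the HPD result was not tested.

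The genes whose profile was closest to each probe set were found by the root mean square (RMS) difference of log2 signals over the 32 arrays, each profile centred on its own mean, among 5593 other genes. For the brighter TAT probe set, whose own RMS deviation was 0.82, these were FBP1 (0.38), a gluconeogenic phosphatase, TP53BP2 (0.38), SGK1 (0.39), ACOX2 (0.39), a peroxisomal oxidase of bile acid synthesis, and MEIS1 (0.42). FBP1 averaged 10.59, 11.70 and 12.24 at 35, 63 and 91 dpc. For the dimmer probe set, with an own RMS deviation of 0.83, they were ARFGAP3 (0.47), LIPC (0.49), the hepatic lipase, KLF11 (0.50), PGRMC1 (0.52) and LOC100157017 (0.53). The 2 TAT probe sets had no gene in common among these.

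For HPD, with an own RMS deviation of 3.59, the closest were CITED1 (1.53), a transcriptional coregulator, GPX3 (1.66), AQP3 (1.84), a water and glycerol channel, TRH (1.86), the thyrotropin-releasing hormone, and NANOS1 (1.92), an RNA-binding repressor. CITED1 averaged 9.34, 5.43 and 3.80 at 35, 63 and 91 dpc, and AQP3 9.06, 6.07 and 3.06.

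Over the 12 arrays of 63 dpc alone, where HPD varied most (own RMS deviation 2.04), the closest genes were CYP2E1 (1.23), a cytochrome P450 of small solvents, C4A (1.44), a complement component, CITED1 (1.46), GPX3 (1.53) and GSTM3 (1.55), a glutathione transferase. Control replicates 2 and 1 held the highest values of HPD (9.18 and 8.08), of CYP2E1 (7.24 and 5.42, against 2.94 to 3.43 elsewhere), of C4A (8.21 and 7.65) and of CITED1 (7.0 and 6.64). GSTM3 was highest in control replicate 2 (7.83), but control replicate 1 lay below methyl replicates 5 (7.60) and 6 (7.13), whose HPD values were 5.45 and 3.91. CYP2E1 was deposited as the same 3.24 on 13 of the 32 arrays, so its low values have no order. GPX3 was 7.55 and 7.53 in these 2 fetuses and 7.48 in control replicate 4, whose HPD value was 4.88. Control replicates 5 and 6 had HPD at 2.70 and 2.67 and the lowest GPX3 of the stage, 4.89 on both. Methyl replicates 3 and 4 also had HPD at 2.70, but their GPX3 was 6.64 and 6.22. The GPX3 value of 4.89 was deposited as the same number on 3 arrays, 2 of 63 dpc and 1 of 91 dpc.

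**Figure D4:**
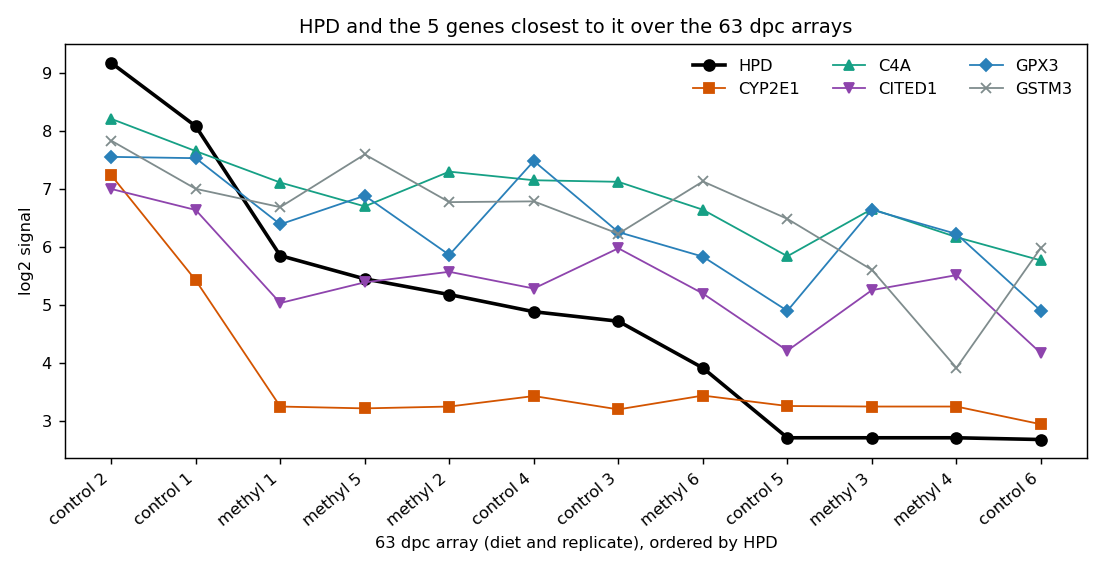
Log2 signal (vertical axis) of HPD and the 5 genes closest to it on the 12 arrays of 63 dpc, named by diet and replicate and ordered by HPD (horizontal axis); the lines only join points of a gene. HPD and CYP2E1 are high together in control replicates 2 and 1, and HPD ends on a floor of 2.67 to 2.70 in the last 4 arrays.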

How the data were processed

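Per the labels' protocols, TRI Reagent extraction, a DNase step and an RNeasy clean-up preceded labelling, which turned 0.5 ug total RNA into biotinylated cRNA. The deposited values are log2 signals, 1 per probe set and array, and the submitters' processing notes name GCOS 1.1.1 without its role. The method of summary and normalization is not given in the sources used here, and values were used as deposited. Of 23999 probe sets that were not controls, 15327 were kept, with a value above their array's 40th percentile in at least 5 arrays. In the array annotation 10099 of the 24123 probe sets had 1 symbol, 198 several and 13826 none. Symbols were checked by NCBI gene ID against RefSeq (Sscrofa11.1), and 0 changed.

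limma 3.58.1 in R 4.3.3 fitted a mean for each of 6 groups of stage and diet, with an intensity trend and 26 residual degrees of freedom. A probe set was called where its p, adjusted after Benjamini and Hochberg over all kept probe sets of a contrast, was under 0.05. The fit was tested on simulated data. The diet labels of a stage were also permuted exactly (252 or 924 arrangements, two-sided, unadjusted). Replicate numbers follow the order of deposit and only name samples.

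The members, the gene lists and the spike-in split (bioC minus bioB over or under 1.2) were chosen with earlier results of these data known. Named were all measured genes of the 3 lists of tyrosine and tetrahydrobiopterin genes by their brightest probe set, the 4 genes of smallest p per step in the lists of other amino acid breakdown and of hormone and liver factors, KLF9, NR3C1, CEBPA and HNF4A whatever their p, the closest 5 genes per probe set, and markers of liver, red cells, kidney, adrenal, gonad, pancreas and gut. Alternatives changed the trend, spread, filter, low values, normalization, array weights, arrays used and test. A listed item is not reported here.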

Additional observations from a re-analysis of the deposited data

Results flagged for a closer look

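On the HPD probe set methyl 91 dpc replicate 3 stood apart from the other arrays of its group. Its value was 3.53 and the nearest other was 3.05, a gap of 0.98 of the range of the group, above Dixon's critical value of 0.71 for 5 samples. The other 4 values were 3.04 and 3.05, close to the low end of the scale, and 2 of them were deposited as the same number. In all 18 groups of 5 or 6 arrays were examined, and chance flags about 1 in 20 such groups.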

How the results depend on the processing

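The 30 results were recomputed under 1326 alternatives, 960 of which left out 1 array, and 1295 kept their direction and side of the threshold. The fall of HPD and the rise of both TAT probe sets between 91 and 35 dpc, and between 63 and 35 dpc the fall of HPD and the rise of the brighter TAT probe set, passed under every alternative run. Quantile normalization moved the median of all probe sets by -0.15 between 91 and 35 dpc, and HPD then fell by 7.97 and the brighter TAT probe set rose by 1.77. Without trend, filter or equal weights no member call changed. HPD, 91 minus 63 dpc, no longer passed at -1.48 with the compared stages alone, -1.15 and -1.81 with the methyl and the control diet alone (added after seeing the data), and -1.76 and -1.20 with small-gap and large-gap arrays alone; over the arrays left out it ran from -1.75 to -1.10 and always passed. The brighter TAT probe set, 91 minus 63 dpc, was 0.0051 with the methyl diet alone. The dimmer, 63 minus 35 dpc, was 0.42 with the control diet alone. Its 91 minus 63 dpc difference passed at 1.34 with the control diet alone, 0.66 with small-gap arrays alone and 0.59 with the gap as a block, and reversed to -0.34 with the methyl diet alone; over the arrays left out it ran from 0.34 to 0.68. Exact permutation put the diet differences of the brighter probe set at 63 dpc (0.67) and 91 dpc (-0.69) and of the dimmer at 63 dpc (0.84) under an unadjusted 0.05. Reversed but never called were the brighter diet difference at 35 dpc (0.091) and over stages (0.080) in small-gap arrays and the dimmer over stages (-0.17) in large-gap arrays; leaving out 1 array moved the dimmer from -0.037 to 0.26 at 35 dpc and from -0.074 to 0.16 over stages. The count of breakdown genes that fell was 1, 4 and 1 in small-gap arrays alone, for 63 minus 35, 91 minus 35 and 91 minus 63 dpc, against 3, 7 and 5, and it was 4 and 6 in the first and last under quantile normalization, where QDPR and SPR were added. Fewer arrays enter each fit of 1 gap group. The cause of the other changes was not tested. No paired analysis was possible because the labels carry no replicate numbers, dams or litters. Signal close to the low end limits what can be said of HPD after 35 dpc.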
